A study of Mus musculus with 2 samples.

Results

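Antigen presentation by MHC class II was described here through 10 genes: the chain genes H2-Aa, H2-Ab1 and H2-Eb1, the invariant chain gene Cd74, the transactivator gene Ciita, and the peptide-loading genes H2-DMa, H2-DMb1, H2-DMb2, H2-Oa and H2-Ob. They were picked by symbol, and all 10 were found among the 27998 genes of the count matrices. The study sequenced single cells selected for CD11c, the integrin encoded by Itgax, from the tumour microenvironment of mice that carry the PyMT oncogene (polyoma middle T antigen) on the C57BL/6N background. It holds 2 libraries, called replicate 1 and replicate 2 here, both labelled WT and myeloid cells. No other genotype, treatment or time is part of the series. The sources used here name neither the promoter of the transgene nor the age of the mice. They do not say whether the libraries came from separate animals. Each p-value below rests only on the spread between these libraries, which may be technical. Where the shift common to a whole library was fitted, this is the spread of class differences, estimated over all classes in the fit.

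MHC class II molecules are pairs of an alpha and a beta chain that carry peptides from endosomes to the surface of professional antigen-presenting cells, where CD4+ T cells read them. The invariant chain, CD74, guides new pairs to endosomes and leaves a fragment in the groove, which the H2-DM heterodimer exchanges for other peptides. H2-DO, a heterodimer related to H2-DM and best known from B cells and dendritic cells, binds H2-DM and restrains it. Transcription of the chain genes depends on CIITA, a coactivator that docks on factors at conserved boxes before them and does not bind DNA itself. Among these boxes are the Y box, whose core ATTGG is bound by NF-Y, and the X boxes bound by RFX and CREB. C57BL/6 mice make the I-A molecule (H2-Aa with H2-Ab1) and no I-E at the surface, because they lack a functional E alpha gene, although H2-Eb1 is transcribed.

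In the GENCODE M21 annotation of GRCm38, all 10 are protein-coding genes, and 8 of them lie together on chromosome 17 within 224.3 kb. In order along the chromosome these are H2-Oa (ENSMUSG00000024334) at chr17:34092340-34095234, H2-DMa (ENSMUSG00000037649) at chr17:34119541-34139101, H2-DMb2 (ENSMUSG00000037548) at chr17:34143307-34151555, H2-DMb1 (ENSMUSG00000079547) at chr17:34153072-34160230, H2-Ob (ENSMUSG00000041538) at chr17:34238903-34254414, H2-Ab1 (ENSMUSG00000073421) at chr17:34257689-34269419, H2-Aa (ENSMUSG00000036594) at chr17:34282744-34287823 and H2-Eb1 (ENSMUSG00000060586) at chr17:34305867-34316674. H2-Aa is on the minus strand and the others are on the plus strand. Ciita (ENSMUSG00000022504) lies apart at chr16:10480059-10528418, and so does Cd74. H2-Eb1 and H2-Oa each overlap an annotated antisense gene, and H2-DMa, Cd74 and Ciita overlap other genes. Whether the counting used strand is not given in the sources used here, so reads of such partners could not be told apart.

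Stretches with letters of the conserved boxes are shown here. In the results below the genes are expressed together in most myeloid classes, while H2-DMb2 and the DO genes part from the rest. RefSeq promoter sequences on GRCm38.p6, running from 250 bases before to 50 bases after each gene's start, matched 7 of the 10 genes. The stretches of 4 of these and of H2-Eb2, a further class II beta gene of the locus, are printed as 60 bases on the gene's strand, with capitals on matches to the letters ATTGG (the Y box core), its longer form CTGATTGG, and ACNGATG (a part of the X boxes):
H2-Aa, chr17:34287862-34287921, minus strand: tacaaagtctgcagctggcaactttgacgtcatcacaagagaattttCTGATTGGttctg
H2-Eb1, chr17:34305758-34305817, plus strand: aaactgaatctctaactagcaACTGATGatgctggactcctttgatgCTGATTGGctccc
H2-DMb2, chr17:34145109-34145168, plus strand: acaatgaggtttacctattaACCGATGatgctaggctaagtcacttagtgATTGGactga
H2-Ob, chr17:34238798-34238857, plus strand: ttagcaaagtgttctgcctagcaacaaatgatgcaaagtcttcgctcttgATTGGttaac
H2-Eb2, chr17:34325525-34325584, plus strand: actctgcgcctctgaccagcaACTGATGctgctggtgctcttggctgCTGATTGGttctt

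ATTGG on either strand occurred in at least 1 promoter of each of the 7 matched genes and in 37.4% of 32851 RefSeq promoters of 300 bases. H2-DMa has 2 entries in the table, of which 1 held ATTGG within its 250 upstream bases. CTGATTGG, which contains ATTGG, was present in H2-Aa, H2-Eb1 and H2-Oa and in 4.1% of all promoters. ACNGATG was found in 5 of the 7 genes and in 9.9% of all. ACNGATG followed by ATTGG after 10 to 40 bases on the same strand was rarer, at 0.225% of all promoters, and was present in H2-Eb1, H2-DMb1 and H2-DMb2. The gap measured 22 bases in H2-Eb1 and 23 bases in both DM beta genes. Over the 250 bases upstream, H2-DMb1 and H2-DMb2 had 83.3% of 209 aligned bases in common. The matching stretch of H2-DMb1 falls inside an annotated untranslated exon of a GENCODE transcript and is not printed, and neither is that of H2-Oa, of which 6 bases do so. The RefSeq start of H2-DMb2 used here lies inside the longer span that GENCODE gives the gene. These are matches of letters in a window, and binding was not measured.

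The authors deposited unique molecular identifier (UMI) counts, in which each captured transcript molecule counts once at its 3′ end, so levels of different genes were compared without a length term. The libraries held 17369071 and 13317214 UMIs, and 1898 and 1214 barcodes were taken as cells, with median depths of 5660 and 7142 UMIs. Cell classes were rebuilt from clusters made on marker genes alone, with the 10 genes left out of that step, and are not the authors' annotation. A class name carries the suffix "like" and the markers that define it. The classes were cDC2-like (conventional dendritic cells type 2, 218 and 211 cells in replicates 1 and 2), cDC1-like (type 1, 156 and 97), mature DC-like (Fscn1, Ccl22, 53 and 27), C1q-high macrophage-like (208 and 178), Ccr2 Fcgr4 macrophage-like (117 and 70), Folr2 resident macrophage-like (290 and 53), Spp1 Gpnmb macrophage-like (100 and 39) and Retnla Ear2 monocyte-like (185 and 114). T or NK-like, epithelial-like and fibroblast-like cells were also present and served as a background, which goes against the label of myeloid cells for those barcodes, and 663 of 3112 cells stayed unnamed. The libraries shared 2 barcodes, against 3.12 expected from their sizes alone. The Folr2 class made up 15.3% of cells in replicate 1 and 4.37% in replicate 2.

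H2-Aa, H2-Ab1, H2-Eb1 and Cd74 were among the most abundant messages of the sorted cells. Together they made up 5.03% and 6.46% of all UMIs in cDC2-like cells (replicate 1 and replicate 2), 5.13% and 6.34% in Ccr2 Fcgr4 macrophage-like cells, 5.32% and 5.22% in C1q-high macrophage-like cells and 4.51% and 5.25% in cDC1-like cells. They took 3.67% and 3.32% in mature DC-like cells, 3.08% and 3.79% in Folr2 resident macrophage-like cells, 2.996% and 4.001% in Retnla Ear2 monocyte-like cells and 1.05% and 0.707% in Spp1 Gpnmb macrophage-like cells. Of the background classes, epithelial-like cells had 0.125% and 0.159%, fibroblast-like cells 0.609% and 0.156% and T or NK-like cells 0.899% and 0.146%. Free RNA, read from barcodes of at most 50 UMIs, held 2.24% and 3.30%, so these messages were also common outside cells.

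H2-Ab1, the beta chain of I-A, shows the order of the classes. In CPM (counts per unit of library size, where 10000 CPM is 1% of the UMIs of the class before scaling by TMM, replicate 1 then replicate 2), it stood at 16165 and 21972 in cDC2-like, 15310 and 19156 in Ccr2 Fcgr4 macrophage-like, 14423 and 17209 in cDC1-like and 15548 and 15057 in C1q-high macrophage-like cells. The ranges of neighbours in this order overlapped. Lower down, it was 9659 and 12876 in Retnla Ear2 monocyte-like, 8671 and 9303 in Folr2 resident macrophage-like and 9172 and 7814 in mature DC-like cells, where the Folr2 and mature DC-like ranges overlapped. Spp1 Gpnmb macrophage-like cells had 2963 and 2058, below every other myeloid class in both libraries. T or NK-like cells had 2631 and 468 and fibroblast-like cells 1765 and 474, with replicate 1 the higher library. These sums rest on few cells: the median cell had 3.21 and 2.74 UMIs of H2-Ab1 per 10000 in T or NK-like and 2.09 and 2.19 in fibroblast-like cells, while the 90th percentiles were 50.8 and 10.1 and 29.0 and 5.17. Epithelial-like cells had 352 and 425.

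H2-Aa, the alpha chain of I-A, ran from 16414 and 20795 CPM in cDC2-like cells to 3089 and 1835 CPM in Spp1 Gpnmb macrophage-like cells. Its place among the classes differed from that of its partner in mature DC-like cells, at 14099 and 11087 CPM, which lay above the Folr2 class (9817 and 10097). H2-Eb1 ran from 13025 and 17419 CPM in cDC2-like cells, with Ccr2 Fcgr4 macrophage-like cells overlapping at 12853 and 17520, to 2311 and 1652 in the Spp1 class. Cd74 (ENSMUSG00000024610, chr18:60803848-60812652) was counted less often than H2-Ab1 in every myeloid class apart from mature DC-like cells of replicate 2. It stood at 9429 and 14685 CPM in cDC2-like, 10568 and 13153 in C1q-high macrophage-like, 7523 and 8007 in mature DC-like and 1713 and 1418 in Spp1 Gpnmb macrophage-like cells, and its ranges overlapped between neighbours from the first to the seventh class in the order. Per H2-Ab1 UMI, mature DC-like cells had 1.54 and 1.42 UMIs of H2-Aa, 1.203 and 1.283 of H2-Eb1 and 0.820 and 1.025 of Cd74. In cDC2-like cells the same ratios were 1.015 and 0.946, 0.806 and 0.793, and 0.583 and 0.668, so each of the 3 was higher in mature DC-like cells in both libraries.

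**Figure D1:**
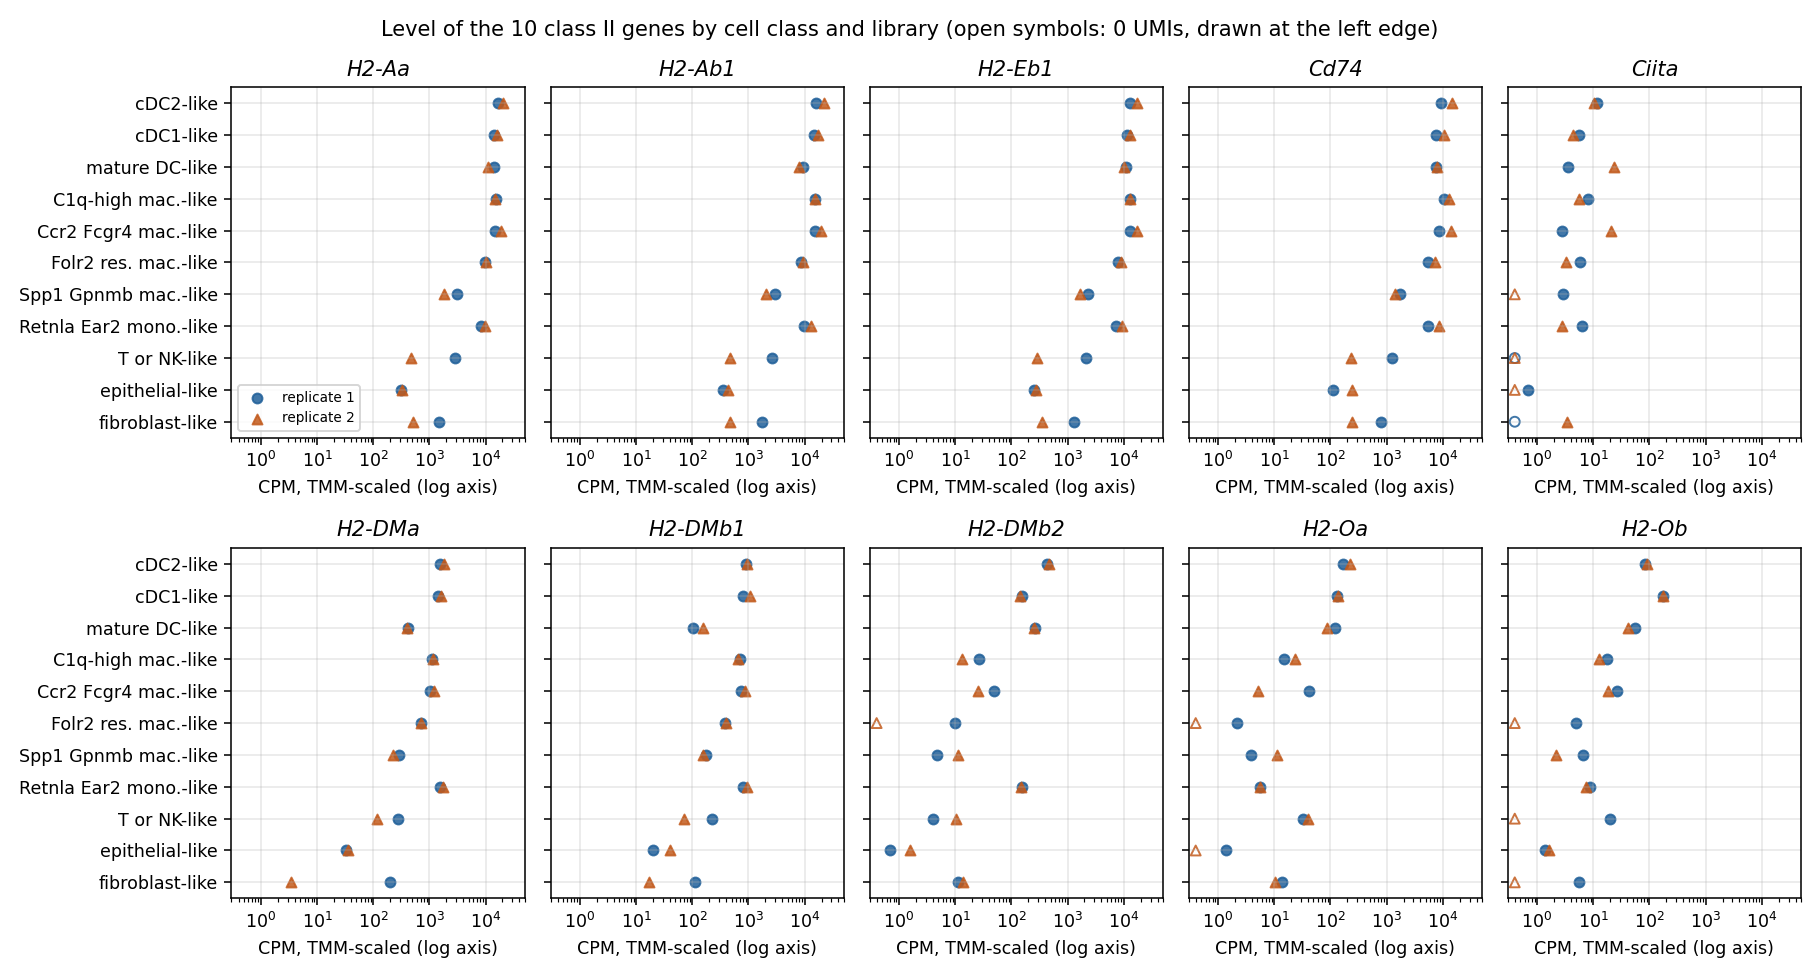
Level of each of the 10 genes in 11 cell classes, as CPM scaled by TMM on a log axis, with a circle for replicate 1 and a triangle for replicate 2. Apart from Spp1 Gpnmb macrophage-like cells, the myeloid classes hold H2-Aa, H2-Ab1, H2-Eb1 and Cd74 at high levels, with H2-Ab1 from 7814 to 21972 CPM. H2-DMb2, H2-Oa and H2-Ob drop from the dendritic cell classes to the macrophage classes.

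Within a class the 4 genes varied widely from cell to cell. Their summed share of a cell's UMIs had a median of 5.63% and 5.69% in C1q-high macrophage-like cells (replicates 1 and 2), 4.88% and 6.51% in cDC2-like, 2.84% and 3.33% in Folr2 resident and 3.04% and 3.11% in mature DC-like cells. In Spp1 Gpnmb macrophage-like cells the median was 0.635% and 0.116%, and 60 of 100 and 35 of 39 cells were under 1%. Among C1q-high macrophage-like cells 6 of 208 and 18 of 178 were under 1%, and among cDC2-like cells 3 of 218 and 1 of 211. In mature DC-like cells the 10th and 90th percentiles were 0.685% and 6.67% in replicate 1 and 0.649% and 5.76% in replicate 2. Per cell, H2-Ab1 tracked H2-Eb1 with Pearson correlations of 0.77 to 0.96 over the 8 myeloid classes of both libraries, H2-Aa with 0.59 to 0.96 and Cd74 with 0.63 to 0.94. The lowest of the H2-Aa values were those of Retnla Ear2 monocyte-like cells, 0.64 and 0.59. Cells of a class share their library, so these correlations are descriptions over cells, not tests.

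**Figure D2:**
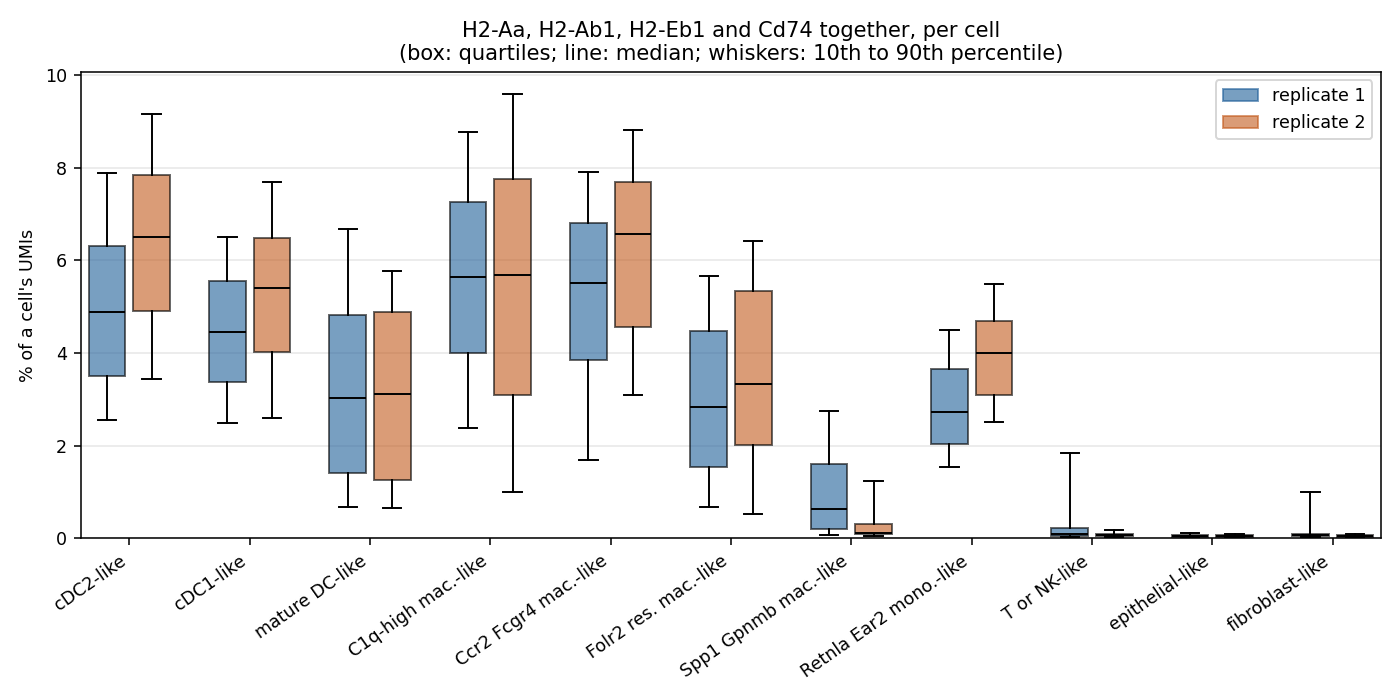
Share of each cell's UMIs taken by H2-Aa, H2-Ab1, H2-Eb1 and Cd74 together, in percent, by class and library, with the median as a line, quartiles as a box and the 10th and 90th percentiles as whiskers. Spp1 Gpnmb macrophage-like cells are the lowest of the 8 myeloid classes, with medians of 0.635% and 0.116%, and mature DC-like and Folr2 resident macrophage-like cells spread from under 1% to over 5%.

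H2-DMa, the alpha chain of H2-DM, was counted far less often than H2-Ab1. It stood at 1570 and 1795 CPM in cDC2-like, 1562 and 1766 in Retnla Ear2 monocyte-like and 1451 and 1612 in cDC1-like cells, with overlapping ranges, and then at 1135 and 1137 in C1q-high and 1023 and 1199 in Ccr2 Fcgr4 macrophage-like cells. The Folr2 class had 710 and 699, mature DC-like cells 412 and 399 and the Spp1 class 286 and 221, each below the class before it. The monocyte-like class, which came in the lower part of the myeloid order for the class II chains and Cd74, was thus level with the dendritic cell classes for this chain. Per H2-DMa UMI it had 6.19 and 7.29 UMIs of H2-Ab1, against 10.3 and 12.2 in cDC2-like, 13.7 and 13.2 in C1q-high macrophage-like and 22.2 and 19.6 in mature DC-like cells.

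H2-DM has a beta chain from either of 2 genes, and these parted. H2-DMb1 was spread like H2-DMa, at 889 and 942 CPM in cDC2-like, 788 and 1085 in cDC1-like, 805 and 943 in monocyte-like, 739 and 877 in Ccr2 Fcgr4, 709 and 646 in C1q-high, 384 and 395 in Folr2 resident, 173 and 155 in Spp1 and 105 and 153 in mature DC-like cells. H2-DMb2 had 433 and 463 CPM in cDC2-like and 262 and 252 in mature DC-like cells. It had 157 and 146 in monocyte-like and 154 and 142 in cDC1-like cells, which overlapped, then 49.2 and 26.01 in Ccr2 Fcgr4 and 26.8 and 13.3 in C1q-high macrophage-like cells, which overlapped as well. In the Folr2 class 14 UMIs were counted in replicate 1 and 0 in replicate 2, where a count of 0 allows up to 10.4 CPM, and in the Spp1 class 5 in each. The ratio of H2-DMb2 to H2-DMb1 UMIs was 0.487 and 0.492 in cDC2-like cells, 0.196 and 0.131 in cDC1-like, 0.195 and 0.154 in monocyte-like and 2.5 and 1.65 in mature DC-like cells, while in C1q-high macrophage-like cells it was 0.038 and 0.021. Mature DC-like cells were the only class of the 8 where H2-DMb2 was counted more often than H2-DMb1.

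The 2 DM beta transcripts are near copies, 94.1% identical over 1219 aligned bases, so the authors' counting could have split or dropped reads that fit both. Their last 300 bases, where a 3′ library reads, are less alike, with 70.9% identity, and of 1307 windows of 98 bases in H2-DMb1 the 185 shared with H2-DMb2 end no nearer than 324 bases from its 3′ end. Their values are given as uncertain for this reason. After each cell was thinned to 1900 UMIs, 40.4% and 44.5% of cDC2-like cells had a UMI of H2-DMb2, against 63.8% and 73.9% unthinned, and 24.5% and 25.9% of mature DC-like, 25% and 16.5% of cDC1-like, 19.5% and 21.9% of monocyte-like and 5.29% and 2.81% of C1q-high macrophage-like cells did (thinned). Epithelial-like cells do not normally express the gene, and with median depths of 8837 and 9531 UMIs against 5749 and 7598 in cDC2-like cells, 0% of them had one after thinning and 0.99% and 2.5% before.

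H2-Oa and H2-Ob, the chains of H2-DO, had their highest levels in the 3 dendritic cell classes. H2-Oa had 168 and 222 CPM in cDC2-like, 132 and 136 in cDC1-like and 119 and 88.0 in mature DC-like cells, with no overlap between these. H2-Ob took another order, with 173 and 177 in cDC1-like, 82.1 and 89.5 in cDC2-like and 55.9 and 41.1 in mature DC-like cells, again with no overlap. In C1q-high macrophage-like cells H2-Oa had 14.6 and 23.4 CPM and H2-Ob 17.9 and 12.5, and in monocyte-like cells 5.57 and 5.64 and 8.75 and 7.52. The Folr2 class held 3 and 0 UMIs of H2-Oa and 7 and 0 of H2-Ob. H2-Oa in Ccr2 Fcgr4 macrophage-like cells rested on replicate 1, with 30 UMIs against 2, and 21 of those 30 came from a single cluster of 47 cells marked by Ly6i and Ly6c2. T or NK-like cells had 8 UMIs of H2-Oa in each library, 32.1 and 40.7 CPM. H2-Ob UMIs per H2-Oa UMI numbered 1.31 and 1.30 in cDC1-like and 0.487 and 0.404 in cDC2-like cells.

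H2-DMa UMIs per H2-Oa UMI, a comparison of the alpha chains of H2-DM and its inhibitor, came to 9.33 and 8.10 in cDC2-like, 11.03 and 11.8 in cDC1-like and 3.47 and 4.53 in mature DC-like cells. The ratio was 77.6 and 48.6 in C1q-high macrophage-like and 280 and 313 in Retnla Ear2 monocyte-like cells, the latter on 7 and 6 UMIs of H2-Oa. In Ccr2 Fcgr4 macrophage-like cells the libraries disagreed, with 24.3 and 230.5. B cells, in which H2-DO is best known, were looked for with 6 matched markers. These markers were among those used to build and name the classes. Their low values were thus partly set by that step and are no test of B cell RNA. In cDC2-like cells all 6 were at 0 in replicate 1 and 5 were at 0 in replicate 2 (summed 0 and 2.38 CPM), in mature DC-like cells all 6 were at 0 in both, and in cDC1-like cells 4 and 3 were at 0 (summed 2.29 and 5.02 CPM). In C1q-high macrophage-like cells, with their lower H2-Oa and H2-Ob, the list summed to 27.8 and 39.1 CPM, with 5 and 4 of the 6 at 0.

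**Figure D3:**
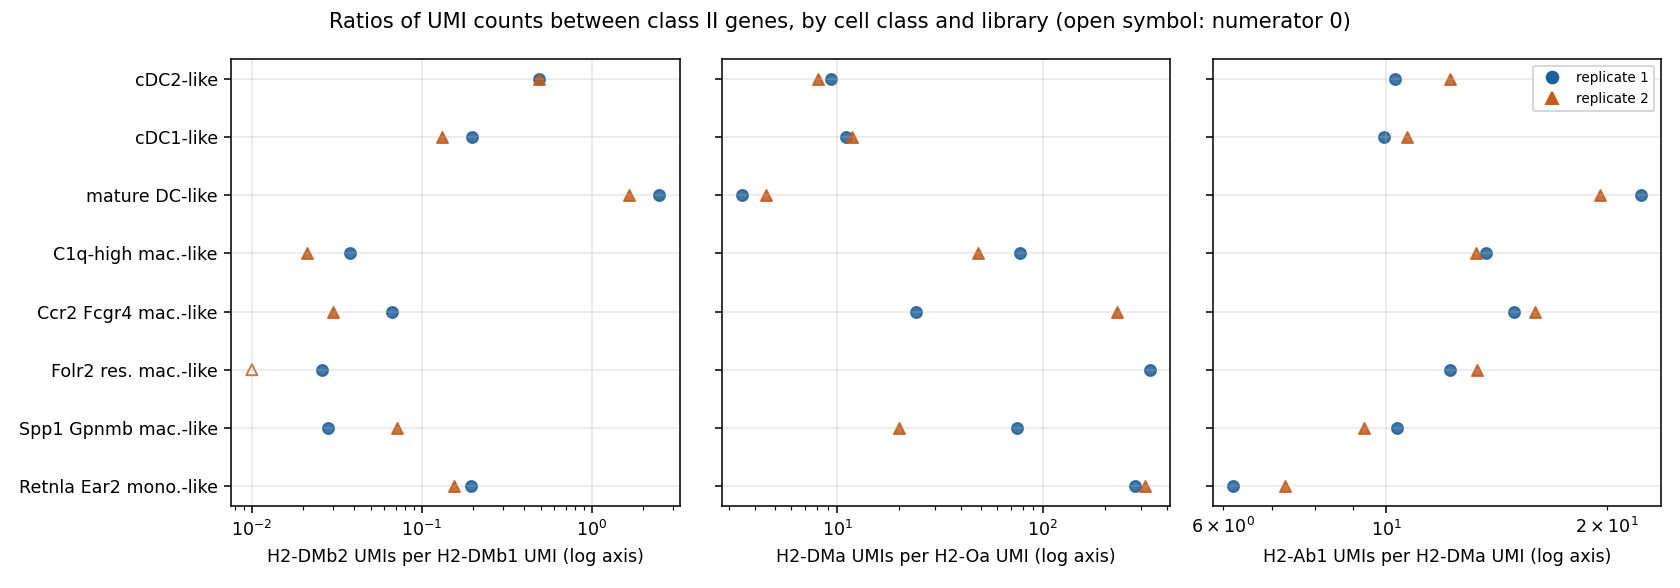
Ratios of UMI counts between pairs of the genes in 8 myeloid classes, on log axes, with a circle for replicate 1 and a triangle for replicate 2 (an open symbol marks a numerator of 0, and a class with no H2-Oa UMI has no point). H2-DMb2 per H2-DMb1 exceeds 1 in mature DC-like cells, H2-DMa per H2-Oa is lowest there, and H2-Ab1 per H2-DMa is lowest in Retnla Ear2 monocyte-like cells.

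Ciita itself was barely sampled. Its UMIs numbered 14 and 15 in cDC2-like, 10 and 7 in C1q-high macrophage-like, 2 and 8 in Ccr2 Fcgr4 macrophage-like, 8 and 1 in Folr2 resident, 8 and 3 in monocyte-like, 7 and 4 in cDC1-like, 3 and 0 in Spp1 Gpnmb macrophage-like and 1 and 4 in mature DC-like cells. T or NK-like cells had none in either library, which allows up to 12.25 and 15.4 CPM, about the level in cDC2-like cells (11.8 and 10.3 CPM). The cDC2-like values lay above those of the C1q-high class (8.13 and 5.46 CPM). No comparison below called it.

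Differences between classes were tested with edgeR on UMI sums per class and library, with the library as a block and p-values adjusted over 9274 genes. The comparisons share their reference classes, so they are not independent of each other. The C1q-high reference class depended on the clustering, and other settings kept from 44.8% to 96.6% of its cells. In cDC2-like against C1q-high macrophage-like cells, 3 of the 10 genes were higher and none lower, where 10.3% of all genes tested were called higher, 12.3% lower and 22.6% in either direction. H2-DMb2 was 22.5-fold higher (log2 4.49, SE 0.27, adjusted p = 3.57e-13), H2-Oa 10.2-fold (log2 3.35, SE 0.32, adjusted p = 1.76e-09) and H2-Ob 5.67-fold (log2 2.504, SE 0.31, adjusted p = 2.65e-07), each in 2 of 2 libraries. The other 7 lay between log2 0.02 (Cd74) and 0.69 (Ciita) and were not called. The median of the 10 was log2 0.50, against -0.06 over all genes tested. H2-Ab1, H2-Aa, H2-Eb1 and Cd74 had standard errors of 0.37 to 0.41 in this fit. In a fit of the 8 myeloid classes alone, added after the data were seen, H2-Ab1 had an SE of 0.15 and H2-DMa (log2 0.67), H2-DMb1 (0.53) and H2-Ab1 (0.41) were called higher too, making 6 of 10 where that fit called 16.5% of genes higher. With 25 cells drawn per class and library H2-Ob lost its call (adjusted p = 0.0708). The C1q-high marker list summed to 1238 and 835 CPM in cDC2-like cells, against 47440 and 60815 in C1q-high cells. That list was used to build and name the classes, so this is no test of macrophage RNA in the sums.

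In the Ccr2 Fcgr4 class no difference from the C1q-high class was called. None of the 10 was called by edgeR, where 1.22% of all genes tested were (0.776% higher and 0.442% lower). DESeq2 called none, and neither did the fit of myeloid classes, where 3.33% of genes were called. H2-DMb2 had an unadjusted p under 0.05 (log2 0.99, SE 0.37, 95% interval 0.24 to 1.74, adjusted p = 0.26), and the intervals of H2-Aa (-0.57 to 0.95) and H2-Ab1 (-0.61 to 0.98) do not show that the levels are alike. H2-Oa pointed in opposite directions in the libraries, with log2 1.38 in replicate 1 and -1.75 in replicate 2. With classes built from variable genes its direction turned and it was called lower (log2 -1.43, adjusted p = 0.0294).

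In Spp1 Gpnmb macrophage-like cells, led by Gpnmb, Spp1 and Arg1, 6 of the 10 genes were lower than in C1q-high macrophage-like cells and none higher, where 3.41% of all genes tested were lower, 2.44% higher and 5.84% changed either way. Cd74 was lower by the most, at log2 -2.91 (SE 0.44, fold 0.133, adjusted p = 4.41e-05), and H2-Eb1 by log2 -2.75, H2-Aa by -2.64 and H2-Ab1 by -2.62 (SE 0.40 to 0.44, adjusted p up to 8.46e-05). H2-DMa and H2-DMb1 were lower by log2 -2.16 (SE 0.37, adjusted p = 0.000193) and -2.04 (SE 0.31, adjusted p = 5.30e-05). The fit of myeloid classes called the same 6 genes lower, where it called 5.19%. The 3 genes that were low in both classes, H2-DMb2, H2-Oa and H2-Ob, had log2 -1.56, -1.61 and -1.53 and were not called. H2-DMb2 and H2-Oa were called lower at higher resolution, with all barcodes of at least 1000 UMIs, without the low-count filter and with classes built from variable genes, which made 8 members lower in each (of 9 tested in the last). All genes called lower there numbered 353 of 9408, 301 of 9384, 360 of 16614 and 368 of 9070. Ciita had 3 against 17 UMIs, a pooled ratio of 0.320 (95% counting interval 0.0601 to 1.11). The median of the 10 was log2 -2.10, against -0.03 over all genes. The Spp1 class was deeper, with median depths of 9146 and 9036 UMIs against 5640 and 7104. After thinning to 1900 UMIs, 72.0% and 43.6% of its cells had a Cd74 UMI, against 99.5% and 96.6% of C1q-high cells and 11.9% and 7.5% of epithelial-like cells, and unthinned the shares were 89% and 74.4%, 100% and 98.3%, and 41.6% and 35%. H2-DMa lost its call with DESeq2 (adjusted p = 0.0574), and H2-DMa and H2-DMb1 lost theirs with 25 cells per class and library (adjusted p = 0.0598 and 0.0559).

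Folr2 resident macrophage-like cells, whose markers are those of resident tissue macrophages, also lay below the C1q-high class. Of the 10 genes 2 were lower and none higher, where 3.47% of all genes tested were lower, 4.16% higher and 7.63% changed either way. H2-Oa was lower by log2 -3.32 (SE 0.76, adjusted p = 0.00459) on 3 against 48 UMIs, a pooled ratio of 0.095 (95% counting interval 0.0189 to 0.294), and H2-Ob by log2 -1.93 (SE 0.58, adjusted p = 0.0367) on 7 against 38. Replicate 2 had 0 UMIs of both. In replicate 1 the levels were 2.14 against 14.6 CPM for H2-Oa and 4.99 against 17.9 CPM for H2-Ob. With the prior count of 2, that library alone gave log2 -1.88 and -1.44, which are not on the scale of the tested folds. The class II chains, Cd74, H2-DMa and H2-DMb1 lay between log2 -0.58 and -0.88 and below the C1q-high class in both libraries. They were not called here, and all 6 were called lower in the fit of myeloid classes (8 of 10 genes lower, where it called 5.81% lower), with Cd74 at log2 -0.84 (adjusted p = 0.000224) and H2-Ab1 at -0.73 (adjusted p = 0.00132). H2-Ob lost its call in 5 settings: with all barcodes of at least 1000 UMIs (log2 -1.10, adjusted p = 0.277), doublets kept (0.128), no block (0.0833), higher resolution (0.065) and 25 cells per class and library (0.515). H2-Oa lost its call with 25 cells per class and library (adjusted p = 0.0835). In the main edgeR fit H2-DMb2 (log2 -1.34, SE 0.47, adjusted p = 0.0823) and Ciita (log2 -0.37, SE 0.80) were not called.

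Retnla Ear2 monocyte-like cells differed from the C1q-high class in both directions. Of the 10 genes, H2-DMb2 was higher at log2 2.92 (SE 0.28, fold 7.56, adjusted p = 3.61e-09), where 8.69% of all genes tested were higher, and H2-Oa was lower at log2 -1.74 (SE 0.53, adjusted p = 0.0183), where 11.3% were lower and 20% changed either way. H2-Oa rested on 13 against 48 UMIs, with 5.57 against 14.6 CPM in replicate 1 (log2 -1.09 with the prior count of 2). In the fit of myeloid classes H2-DMa (log2 0.65, adjusted p = 0.000355) and H2-DMb1 (0.46, adjusted p = 0.0167) were also higher, while Cd74 (-0.67), H2-Aa (-0.63) and H2-Eb1 (-0.56) were lower, and H2-Ab1 was not called (-0.35). That fit called 15.1% of genes higher and 13.6% lower. The cDC2 marker list, all 10 genes present, summed to 851 and 1205 CPM in these cells, against 157 and 100 in C1q-high and 2598 and 3085 in cDC2-like cells, and its part in the result was not tested. H2-Oa lost its call with DESeq2 (adjusted p = 0.0561) and with classes built from variable genes (adjusted p = 0.283).

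**Figure D4:**
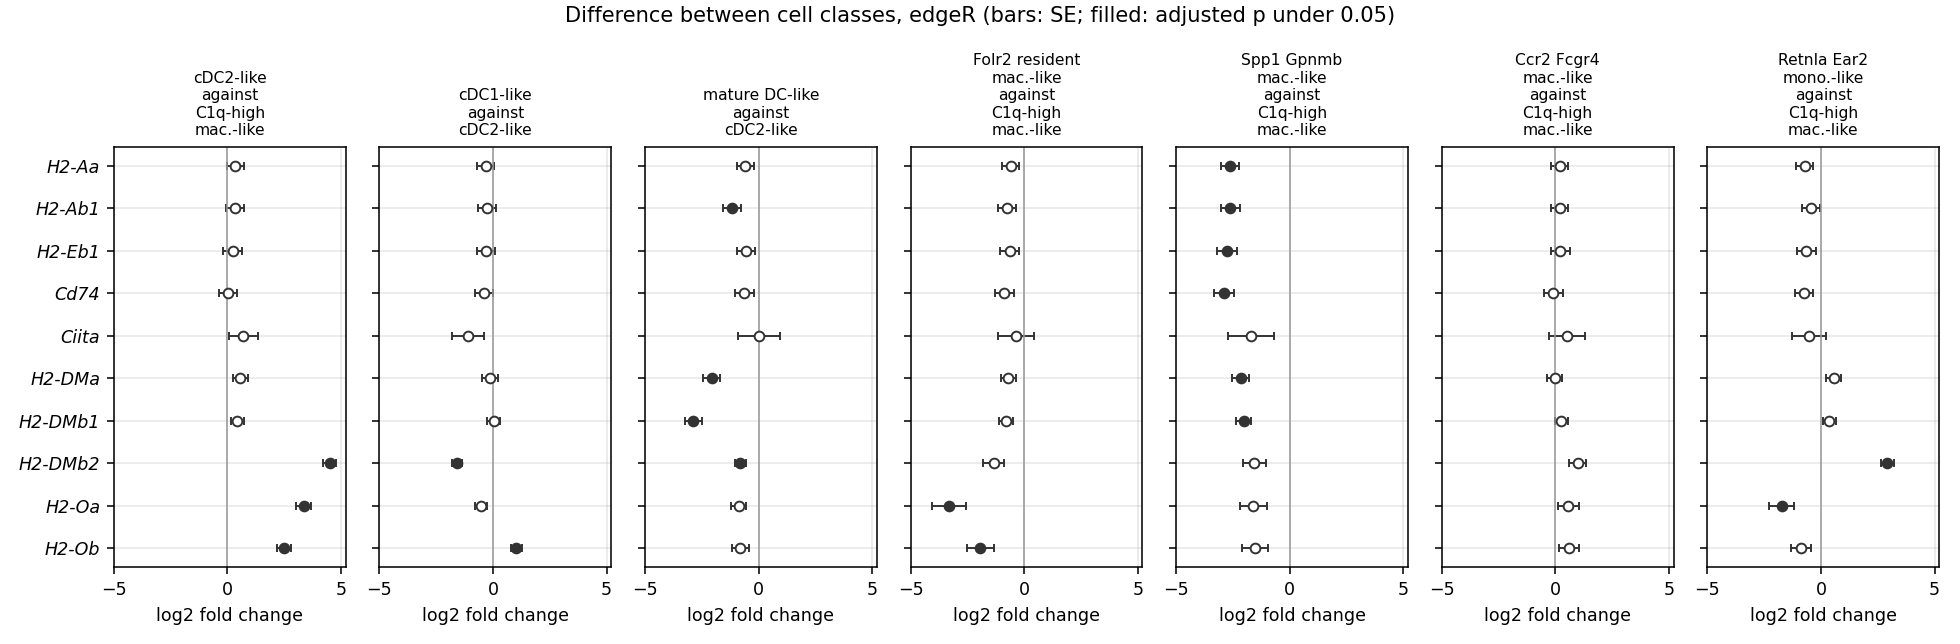
Log2 fold change of each of the 10 genes in 7 comparisons of classes from edgeR, with bars of 1 SE and filled points at adjusted p under 0.05. H2-DMb2 lies at 4.49 in cDC2-like and 2.92 in monocyte-like against C1q-high macrophage-like cells, and the 6 filled points of Spp1 Gpnmb macrophage-like cells lie between -2.91 and -2.04.

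Among dendritic cells, cDC1-like and cDC2-like cells differed in 2 of the 10 genes, where 10.6% of all genes tested changed. H2-DMb2 was lower in cDC1-like cells by log2 -1.61 (SE 0.22, fold 0.329, adjusted p = 4.85e-06), where 5.97% of genes were lower. H2-Ob was higher by log2 1.02 (SE 0.23, fold 2.02, adjusted p = 0.00348), where 4.59% were higher. The fit of myeloid classes called these same genes in the same directions, where it called 5.92% higher and 9.1% lower. H2-Oa, the partner of H2-Ob, had log2 -0.54 (SE 0.25, adjusted p = 0.21) and was not called. The class II chains and Cd74 lay between log2 -0.28 and -0.40, with 95% intervals that reach from -1.23 to 0.52. With 25 cells per class and library H2-Ob lost its call (adjusted p = 0.0804).

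Mature DC-like cells, the Fscn1 and Ccl22 state that dendritic cells take on after activation, had 4 of the 10 genes lower than cDC2-like cells and none higher, where 6.25% of all genes tested were lower, 5.96% higher and 12.2% changed either way. H2-DMb1 was lower by log2 -2.87 (SE 0.37, fold 0.136, adjusted p = 1.18e-06) and H2-DMa by log2 -2.06 (SE 0.38, fold 0.239, adjusted p = 0.000245). H2-DMb2 was lower by log2 -0.81 (SE 0.24, adjusted p = 0.0241) and H2-Ab1 by log2 -1.19 (SE 0.40, adjusted p = 0.0452). H2-Aa (-0.60), H2-Eb1 (-0.55), Cd74 (-0.62), H2-Oa (-0.87) and H2-Ob (-0.81) were not called. The fit of myeloid classes called H2-Aa, H2-Eb1 and Cd74 lower as well (7 of 10 genes, where it called 9.26% lower). H2-Ab1, H2-DMb2 and H2-DMa lost their calls with DESeq2 (adjusted p = 0.305, 0.119 and 0.0556), which left H2-DMb1. H2-Ab1 and H2-DMb2 also lost theirs with scaling by DESeq2 size factors (adjusted p = 0.0798 and 0.0569). The same genes lost their calls without the block (adjusted p = 0.129 and 0.092) and with equal cell numbers (adjusted p = 0.225 and 0.255). Scaling by DESeq2 size factors changed the split of all calls from 553 higher and 580 lower to 627 and 463.

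The dendritic cell classes were not uniform in the genes that set them apart. Within cDC2-like cells, a cluster marked by Cd209a and Mgl2 had 322 and 303 CPM of H2-DMb2 (not scaled by TMM), 93.2 and 117 of H2-Oa and 56.8 and 49.0 of H2-Ob. A cluster marked by Cd7 and Klrd1 had 487 and 480 of H2-DMb2, 216 and 255 of H2-Oa and 100 and 112 of H2-Ob, and one marked by Zbtb46 had 463 and 523, 234 and 278, and 85.9 and 78.7. The Cd209a cluster was thus the lowest of the 3 for all 3 genes in both libraries, while its H2-DMb1, 827 and 820 CPM, was near the 822 and 826 CPM of the Cd7 cluster. Within cDC1-like cells, the cluster led by Xcr1 and Clec9a had 98.4 and 96.9 CPM of H2-DMb2 and 203 and 194 of H2-Ob, and the other cluster 171 and 188 of H2-DMb2 and 141 and 117 of H2-Ob. In the Folr2 class, H2-Ab1 stood at 9831 and 10722 CPM in the larger cluster and 6474 and 6739 in the cluster with Lyve1 and Cd163, which held 122 cells of replicate 1 and 10 of replicate 2. These are descriptions of clusters, with no test.

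Over the 22 class and library sums, the chain genes and Cd74 moved almost as a unit, with Pearson correlations of log2 CPM of 0.992 to 0.998 between their pairs, and H2-DMa with H2-DMb1 had 0.961. H2-DMb2 had 0.539 with H2-DMb1, 0.768 with H2-Oa and 0.784 with H2-Ob, and H2-Oa had 0.815 with H2-Ob and 0.428 with H2-Ab1. Sums of a library share their capture and depth, so these are descriptions. The sums include T or NK-like, epithelial-like and fibroblast-like cells, where H2-Ab1 was far lower than in most myeloid classes. The correlations thus also hold the contrast of myeloid with other cells, and none was computed over myeloid classes alone. Of 6721 other genes, those nearest to H2-Ab1 were Spi1 (0.936), which encodes the myeloid factor PU.1, Prcp (0.931), a lysosomal carboxypeptidase, and Irf5 (0.928), an interferon regulatory factor. Within the myeloid classes Spi1 could part from H2-Ab1. Its mean was 243 CPM in monocyte-like and 234 in Spp1 cells, where H2-Ab1 had 11268 and 2510. Nearest to H2-DMb2 were Jak2 (0.890), a kinase of cytokine receptors, Psma3 (0.868), a proteasome subunit, and Lsp1 (0.864). Jak2 had 172 and 196 CPM in cDC2-like, 213 and 346 in mature DC-like and 47.2 and 24.2 in C1q-high macrophage-like cells. Nearest to H2-Oa were Cox7a2l (0.933), Nsa2 (0.905) and Nap1l1 (0.879), and nearest to Ciita were Foxn3 (0.851), A530032D15Rik (0.819) and Hfe (0.784), the latter on the few UMIs given above.

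Of the factors that bind the class II promoter, 5 of 7 RFX, NF-Y and CREB genes could be tested, and 1 was called in any of the 7 comparisons: Creb1 was higher in cDC2-like than in C1q-high macrophage-like cells (log2 1.08, SE 0.30, adjusted p = 0.00806). In the other 6 comparisons edgeR called none of the 5 and DESeq2 called none, and an unadjusted p under 0.05 occurred for 2 genes in cDC1-like and 1 in monocyte-like cells. Of 10 genes that process antigen or the invariant chain in endosomes, 7 were lower and 1 higher in that comparison. The protease genes Ctsd (log2 -3.98) and Lgmn (-3.58) were lowest, and Ctss, which cleaves the invariant chain, fell from 8060 to 2085 CPM (log2 -1.95, named after its values were seen, as are the genes that complete small counts below). Ifi30, the thiol reductase of endosomes, was higher at log2 1.09. Monocyte-like cells had 8 of the 10 lower than C1q-high cells, led by Lgmn (-3.54) and Ctsb (-2.44). In Spp1 Gpnmb macrophage-like cells, where the class II genes were lower, Ctsd (2.05) and Ctsl (2.03) were higher and Ctsc lower (-1.24). In the Folr2 class Ctss (-1.67) and Ctsz (-1.17) were lower and Ctsl higher (1.05), and in the Ccr2 Fcgr4 class Ctsd (-1.63) and Ctsb (-0.88) were lower. Against cDC2-like cells, 5 of 10 were lower in cDC1-like cells, led by Ctsh (-1.37) and Ifi30 (-1.34), and 1 in mature DC-like cells, Ctsc (-0.79).

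Among 8 genes of class II traffic and turnover, 5 were lower in cDC2-like than in C1q-high macrophage-like cells, with the tetraspanin gene Cd63 at log2 -4.98 and March8, a ubiquitin ligase gene, on 1 against 14 UMIs (pooled ratio 0.063, 95% counting interval 0.0015 to 0.416). Cd63 was 24.8-fold higher in mature DC-like than in cDC2-like cells (log2 4.63, SE 0.27, adjusted p = 3.51e-13), from 61.3 to 1508 CPM on average, beside Lamp1 higher and Rab7b lower (log2 -1.96). March1, the ligase known to remove class II from the surface of dendritic cells, was higher in cDC1-like than in cDC2-like cells (log2 2.05, SE 0.64, adjusted p = 0.0374) on 30 against 9 UMIs, as was Rab7b (2.86), with 4 of 8 higher and 1 lower. In monocyte-like cells 4 were lower, led by Cd63 (-4.15) and Cd9 (-1.73), and in Ccr2 Fcgr4 cells Cd63 was lower (-1.33). In Folr2 cells Cd9 was lower (-2.45), with Ap1s2 (0.82) and Lamp1 higher, and in Spp1 cells Cd83 was lower (-1.60), Cd9 higher (1.502) and Rab7b lower.

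Interferon gamma is the classical inducer of Ciita. Of 8 genes of its signalling, 3 were higher and 1 lower in cDC2-like than in C1q-high macrophage-like cells, with Jak2 at log2 2.37 and Socs1, an inhibitor of the pathway, at 1.87. Mature DC-like cells had 1 of the 8 higher and 1 lower than cDC2-like cells, the lower being Ifngr1, a receptor chain (log2 -2.72). The median of the 8 there was log2 0.35, against -0.16 over all genes. In Spp1 Gpnmb macrophage-like cells none of the 8 was called by edgeR, with 3 lower at an unadjusted p under 0.05 and none called by DESeq2. In Ccr2 Fcgr4 cells none was called by edgeR or DESeq2 and 2 were higher at an unadjusted p under 0.05. Monocyte-like cells had 3 higher and 3 lower, among them Ifngr2 (-1.51, lower), cDC1-like cells had Jak1 lower (-1.03) and Folr2 cells had Jak1 higher (0.89).

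Of 8 other regulators of Ciita, Irf4 was higher in cDC2-like than in C1q-high macrophage-like cells (log2 3.19) and Tgfbr2 lower (-2.36), with 2 higher and 3 lower in all. Irf4 was also higher in monocyte-like (4.37) and Folr2 resident cells (2.74), and Irf8 was lower in monocyte-like cells (-2.92), where 1 of 8 was higher and 4 lower. Irf8 was higher in cDC1-like (3.76) and in mature DC-like cells (3.998) than in cDC2-like cells, and Irf4 was lower in cDC1-like cells (-2.97). Bach2 in mature DC-like cells rested on 2 against 73 UMIs (pooled ratio 0.158, 95% counting interval 0.0188 to 0.591). In Spp1 cells Tgfbr2 (-1.18) and Spi1 (-0.80) were lower, and in Ccr2 Fcgr4 cells none was called by edgeR or DESeq2, with 1 higher at an unadjusted p under 0.05. H2-Eb2, whose promoter stretch is printed above beside that of H2-Eb1, was counted mostly in mature DC-like cells, at 171 and 223 CPM against 4.23 and 8.26 in cDC2-like cells and at most 13.6 in any library of the other 9 classes (log2 4.97, SE 0.52, adjusted p = 8.42e-08). It thus stood in contrast to H2-DMa and H2-DMb1, which were lower there. In cDC2-like against C1q-high cells H2-Eb2 had 17 against 2 UMIs, a pooled ratio of 7.53 (95% counting interval 1.79 to 67.2, adjusted p = 0.0437), and DESeq2 did not call it.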

How the data were processed

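Droplet libraries (10x Genomics Single Cell 3′ v2) were made from 2 samples of CD11c-selected cells. The files deposited by the authors hold unnormalized UMI counts for each gene in each barcode, made with Cell Ranger 2.2.0 and the mm10 build per the submitters' processing notes. The sources used here give no annotation release, no strand setting and no rule for reads that fit several genes.

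Barcodes were called as cells by a threshold of the 99th percentile of UMIs over the top 3000 barcodes, divided by 10 (2112 and 1905 UMIs). Cells under 200 genes or over 10% mitochondrial UMIs were removed, as were the highest Scrublet scores at 0.8% per 1000 cells (32 and 14 doublets). Cells were clustered (scanpy 1.11.5, Leiden at resolution 2.5) on 117 marker genes from 17 lists, of whose 133 genes 130 matched. A cluster was named when at least 3 markers of a list were raised and no other class had more markers among its top 10 genes. The resolution and this rule were chosen after clusters were seen. The top 10 genes were ranked over all genes, without leaving out the genes described here. They held H2-DMb2 in the cDC2-like cluster marked by Cd7 and Klrd1, and H2-DMb2 and H2-Oa in the one marked by Zbtb46. High levels of these genes may thus have been in view. UMI sums per class and library (22 sums, 10 residual degrees of freedom) were tested with edgeR 4.0.16 (quasi-likelihood, filterByExpr, TMM, library as a block). P-values had a Benjamini-Hochberg adjustment over 9274 genes, with a call at adjusted p under 0.05. The prior count of 2 was used for log2 CPM, in folds of single libraries and correlations, and was not set in the tests. The library is a block because its classes were captured together. The class markers were left out of the tests. The script was tested on simulated data. Intervals and floors of 3 counts cover counting error only, at 95%. With no UMI in any cell, up to 0.194% and 0.303% of cells could hold one.

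The members and lists were chosen with earlier results of these data known. Of 43 genes in 6 pathway lists 42 matched. All 10 members are described, but the levels and folds of some in single classes or comparisons are not given. From each list, up to 2 called genes per comparison are given, of the largest fold and the same sign in both libraries. The 3 genes nearest in pattern to 4 members are given too. Alternatives were DESeq2 1.42.0 and its size factors, no low-count filter, no block, each library left out, other clusterings, doublets kept, another cell threshold and equal cell numbers. A fit of the 8 myeloid classes alone was added after the data were seen. Values of some listed genes are not reported here.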

Additional observations from a re-analysis of the deposited data

Results flagged for a closer look

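Values outside the comparisons were found in 3 places. Of the barcodes of replicate 2, 15 were B-like by their markers and too few for the tests, and they held 27 UMIs of H2-DMb2, 18 of H2-Oa and 17 of H2-Ob, against 7 of H2-DMb1. No B-like cell was found in replicate 1. Cells in no named class had 5.35% and 6.70% of their UMIs from H2-Aa, H2-Ab1, H2-Eb1 and Cd74, as high as the highest named classes. Barcodes of at most 50 UMIs, which hold free RNA, had 2.24% and 3.30% of their UMIs from these 4 genes, above the 0.125% and 0.159% of epithelial-like cells.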

How the results depend on the processing

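With 2 libraries, a fit that leaves one out has no residual degrees of freedom, so those are values with no test. Without the replicate block, 3 member results lost their call, leaving 2 members called in mature DC-like and 1 in Folr2 resident cells (4 and 2 with it). Genes called fell from 1133 to 956 in mature DC-like, from 980 to 653 in cDC1-like and from 708 to 429 in Folr2 cells. They fell from 542 to 298 in Spp1 and from 113 to 40 in Ccr2 Fcgr4 cells. In the fit of myeloid classes 17 of 70 member results gained a call: 6 members were called in cDC2-like against 3, 7 in mature DC-like against 4, 8 in Folr2 against 2 and 7 in monocyte-like against 2. Of 7827 genes tested, that fit called 2408, 1356, 1018 and 2246 in the same order, and 261 in Ccr2 Fcgr4 cells. Without the low-count filter members called were 7 in cDC2-like, 8 in mature DC-like, 8 in Folr2, 8 in Spp1 and 6 in monocyte-like cells. Of 16614 genes tested, 2106, 1304, 785, 617 and 1858 were called in the same order, and 224 in Ccr2 Fcgr4 cells. With DESeq2 members called were 1 in mature DC-like and 1 in monocyte-like cells, where 955 and 1590 of 9274 genes were called. In Ccr2 Fcgr4 cells DESeq2 called 75 genes. With its size factors 2 members were called in mature DC-like cells, where 1090 of 9274 genes were. There the median of all genes was log2 -0.16 with TMM and -0.08 with size factors. With classes built from variable genes 9 members and 9070 genes in all were tested. Members called were 9 in mature DC-like, 9 in Folr2, 8 in Spp1, 1 in Ccr2 Fcgr4 and 4 in monocyte-like cells. Genes called were 1211, 1303, 746, 362 and 2211 in the same order. H2-Oa in Ccr2 Fcgr4 cells reversed from log2 0.57 to -1.43 (adjusted p = 0.0294 by edgeR), and the cause was not tested. Those classes shared 44.8% of C1q-high cells. The share kept was 62.4% at lower resolution, 71.2% with all barcodes of at least 1000 UMIs, 82.4% with doublets kept and 96.6% at higher resolution. Genes called in Ccr2 Fcgr4 cells were 180 at lower resolution, 186 with doublets kept and 189 with all barcodes of at least 1000 UMIs. The last setting left 1 member called in Folr2 cells, where 803 of 9384 genes were called. It gave 8 members in Spp1 cells (578 of 9384 genes), as did the higher resolution (642 of 9408 genes), against 6 in the fit reported. With 25 cells per class and library fewer genes could be tested, 3997 with 9 members among them. Members called were 0 in Folr2, 1 in cDC1-like, 1 in monocyte-like and 2 in mature DC-like cells. Genes called were 491 in cDC2-like, 460 in mature DC-like, 112 in cDC1-like, 67 in Folr2, 112 in Spp1, 11 in Ccr2 Fcgr4 and 474 in monocyte-like cells.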
